A study of Mus musculus with 6 samples.

Results

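Small leucine-rich proteoglycans are secreted proteins of the extracellular matrix whose core is a row of leucine-rich repeats, and most of them carry chondroitin, dermatan or keratan sulfate chains. The 8 genes described here are Dcn (decorin), Bgn (biglycan), Aspn (asporin), Fmod (fibromodulin), Lum (lumican), Prelp, Omd (osteomodulin) and Ogn (osteoglycin). They were matched by gene symbol to 19 of the 45101 probe sets of an Affymetrix mouse array, and all 8 had at least 1 probe set of their own among 18193 genes tested. The genes were chosen by family, and with the differences in intensity between the 3 cell populations already known. The differences between populations are therefore given for the 8 genes as a description with their standard error (SE), and no p-value is attached to them. Whether they passed the threshold used for all genes is stated for description only.

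The arrays measured RNA of sorted mouse hair follicle cells, with 2 arrays for each of 3 populations, from a study of histone modifications along this lineage. All cells came from the back skin of untreated female CD-1 mice. Quiescent stem cells (qHF-SC) were sorted with integrin α6 and CD34 at postnatal days 52 to 60. Activated stem cells (aHF-SC) came from postnatal days 28 to 30 and a sort on CD34, integrin α6 and GFP. The transient-amplifying matrix cells that feed the growing hair (HF-TAC) had the same ages and a sort on ephrinB1, integrin α6 and GFP. The labels do not name the transgene behind the GFP, the side of each gate or how many animals were pooled, and age and sorting scheme differ between populations together with cell state. No label states whether replicate arrays hold different mice, so errors and p-values cover only the array-to-array spread, which may be technical.

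The roles of the family are best known from connective tissue. Decorin, biglycan and asporin form class I, whose members bind collagen and TGF-beta, and decorin and asporin share a binding site on the collagen fibril. Fibromodulin, lumican, PRELP and osteomodulin belong to class II, which often carries keratan sulfate, and osteoglycin to class III. In skin the proteins are known mainly from fibroblasts, and in the dermis they help to set the width and spacing of collagen fibrils.

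Summed marker intensities went in the direction the labels imply. Cd34, 1 of the bulge markers, was also used to sort both stem cell populations, so its part in the sums is not independent of the sort. Krt15 was the brightest of the bulge markers, at 22242 and 23101 in qHF-SC and 8075 and 4744 in HF-TAC. Intensities of 7 bulge stem cell markers summed to between 29487 and 39425 on the stem cell arrays and to 6813 and 9521 on the HF-TAC arrays, and the 7 matrix markers to at most 1556 on the stem cell arrays and 5308 and 8353 on the HF-TAC arrays. The median intensity of an array lay between 22.8 and 24.0, and a group whose mean log2 intensity was at or below that of the array medians is called dim here. Replicates differed more than 2-fold for 202 genes of qHF-SC, for 215 of aHF-SC and for 454 of HF-TAC. Arrays of RNA from many cells cannot tell a larger share of expressing cells from more RNA per cell.

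On the probe set used for each of the 8 genes, 4 had group means that spanned more than 2-fold in intensity. Dcn was bright in HF-TAC, Bgn in aHF-SC and Aspn in qHF-SC, while Fmod was above the array median in both stem cell populations and dim in HF-TAC on the probe set used. Prelp varied less on the probe set used, but differed 4.95-fold between HF-TAC and aHF-SC on its other probe set. Both were highest in aHF-SC. Lum, Omd and Ogn were dim in every population, which was also the case for 31.1% of all genes.

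**Figure D1:**
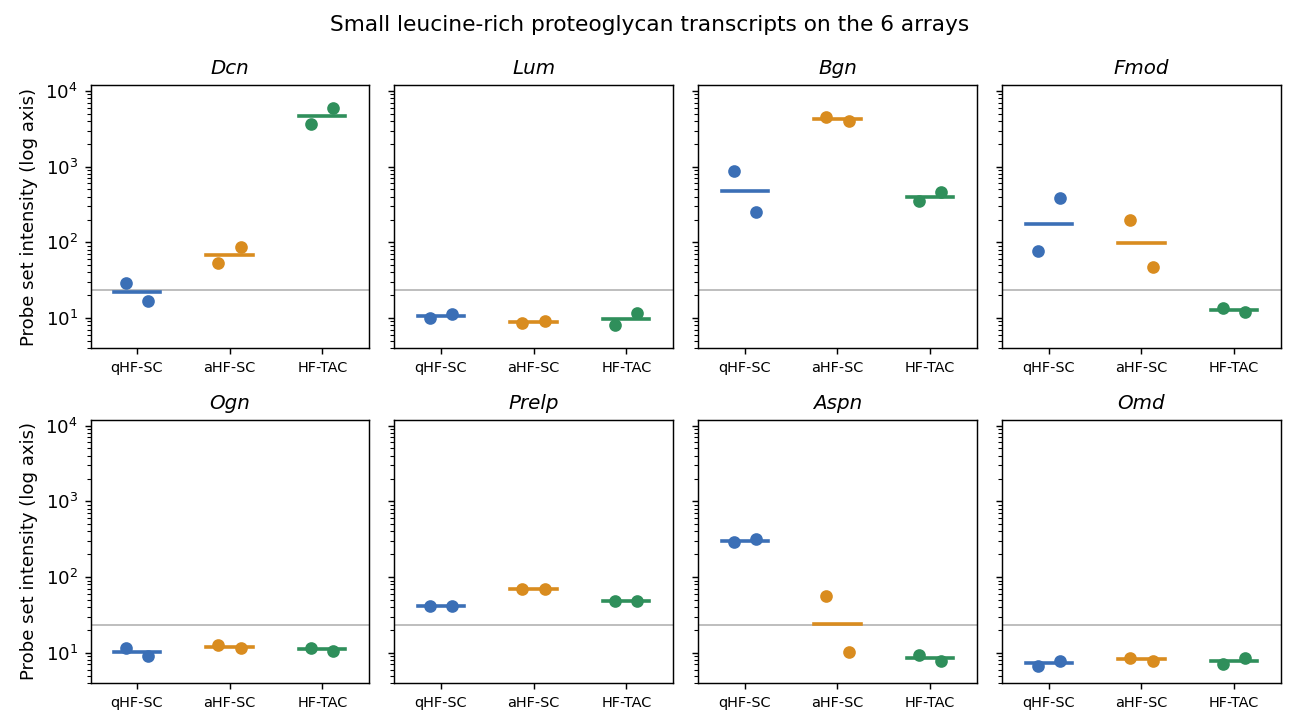
Intensity of the probe set used for each of the 8 genes (log axis) on the 2 arrays of each population; points are arrays, bars are the means of the log2 values and the grey band is the range of the array medians (22.8 to 24.0). Dcn reaches 3646 and 5927 in HF-TAC, Bgn 4565 and 4029 in aHF-SC and Aspn 287 and 317 in qHF-SC, while Lum, Omd and Ogn stay below the band on all 6 arrays.

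Sequence upstream of the transcript start is shown for the 3 genes that were highest in a stem cell population without overlap with the other populations, Aspn in qHF-SC and Bgn and Prelp in aHF-SC. The RefSeq table (GRCm38.p6) held 1 window each for 6 of the 8 genes, all but Dcn and Lum. The sequences are the 250 bases before the start, 5′ to 3′ on the gene's strand, and capitals mark matches to the TATA box (TATAAA) or the GC box (GGGCGG) on either strand. Aspn is shown from the plus strand at chr13:49544193-49544442, Bgn from the plus strand at chrX:73483351-73483600 and Prelp from the minus strand at chr1:133921402-133921651.
Aspn: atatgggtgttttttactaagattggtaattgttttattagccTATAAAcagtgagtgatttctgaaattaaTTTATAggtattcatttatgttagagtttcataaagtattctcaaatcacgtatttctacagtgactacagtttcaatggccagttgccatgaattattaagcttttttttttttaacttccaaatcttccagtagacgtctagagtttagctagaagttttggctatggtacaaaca
Bgn: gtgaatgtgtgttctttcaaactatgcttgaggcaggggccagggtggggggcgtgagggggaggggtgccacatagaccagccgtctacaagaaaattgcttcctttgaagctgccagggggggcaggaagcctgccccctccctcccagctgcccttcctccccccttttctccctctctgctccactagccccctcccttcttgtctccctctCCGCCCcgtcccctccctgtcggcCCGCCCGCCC
Prelp: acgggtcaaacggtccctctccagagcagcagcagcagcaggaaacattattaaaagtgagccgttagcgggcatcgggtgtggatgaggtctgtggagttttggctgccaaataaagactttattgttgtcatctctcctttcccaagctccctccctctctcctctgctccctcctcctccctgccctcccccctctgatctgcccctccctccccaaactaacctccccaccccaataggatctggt

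The windows differed widely in base composition. G and C made up 30.0% of the Aspn window, lower than in all but 1.5% of the 32851 windows of the table, and 64.4% of the Bgn window, higher than in 81.6% of them. Prelp had 55.6%, Fmod 51.2%, Ogn 42.0% and Omd 38.4%, against a median of 52.4% over the table. The Bgn window held 3 GC boxes, starting at positions -34, -10 and -6 before the transcript start, of which the last pair overlaps. None of the other 5 windows held this motif, which 32.7% of all windows do. The Aspn window held 2 matches to the TATA box, at -207 and -178, and that of Ogn 2 overlapping matches, at -229 and -227; 12.4% of all windows hold it. A TCF/LEF core (CTTTGA, either strand, in 13.8% of windows) was found at -146 in Bgn and at -234 and -176 in Omd. An AP-1 site (TGANTCA, 6.7% of windows) was in none of the 6. These matches describe the letters only.

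Decorin, a class I proteoglycan that binds collagen and TGF-beta and is known to bind the EGF and Met receptors, had the widest range of the 8. Its intensity was 28.8 and 16.6 on the qHF-SC arrays, 53.2 and 86.8 on the aHF-SC arrays and 3646 and 5927 on the HF-TAC arrays. The 3 populations did not overlap, and both HF-TAC arrays lay far above the other 4. The log2 difference between HF-TAC and aHF-SC was 6.10 ± 0.35 SE, or 68.4-fold, which was the highest of all 18193 genes in that comparison. Against qHF-SC it was 7.73 ± 0.35 SE, rank 2 of 18193, and at least 177-fold when each array of the dim qHF-SC group that lies below its median is set to that median; the lower bounds given for other genes were made in the same way. Between the stem cell populations Dcn was higher in aHF-SC by 1.64 ± 0.35 SE, or at least 2.59-fold.

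Dcn has another probe set that stayed between 7.84 and 10.2 on all 6 arrays and was dim in every population. Its log2 difference between HF-TAC and aHF-SC was 0.23 ± 0.16 SE, so the pattern of Dcn rests on 1 of its 2 probe sets. Averaged over both, the differences were 3.16 between HF-TAC and aHF-SC and 0.73 between aHF-SC and qHF-SC.

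The genes with the pattern most like that of Dcn were keratins of the growing hair. Likeness was measured as the mean absolute difference of log2 values over the 6 arrays after each gene was centred on its mean, among 3506 other genes whose group means spanned at least 2-fold. Krt28 came first with 0.53, followed by Krt35 with 0.66 and Krt25 with 0.67. Krt25 and Krt28 are keratins of the inner root sheath and Krt35 a keratin of the hair shaft, and their close relatives can share probe signal. Krt28 stood at 19.2 and 16.5 in qHF-SC, 61.8 and 100.2 in aHF-SC and 1534 and 3062 in HF-TAC. Like Dcn, it was higher in replicate 2 than in replicate 1 of both aHF-SC and HF-TAC. Krt28 was picked for its likeness over these same arrays, so the shared direction adds nothing. The fibroblast markers Col1a2 and Col3a1 had this direction too, with Col3a1 at 94.1 and 302 in aHF-SC and 41.8 and 166 in HF-TAC. Others of their list, such as Thy1, did not.

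Decorin is known from fibroblasts. Their markers were a list not picked for likeness to Dcn, so a contrast with the keratins above would test nothing. Of 14 measured dermal fibroblast markers, 5 were dim in HF-TAC (Pdgfra, Dpt, Mfap5, Twist2 and Islr), and the same 5 were dim in both stem cell populations. The others were not dim in HF-TAC, among them Fbln1 at 362 and 426 and Col1a2 at 61.1 and 157. The list summed to between 842 and 1044 in HF-TAC, below its 1979 to 2323 in aHF-SC and 1872 to 2060 in qHF-SC. Bright genes weigh most in such a sum, and most of the difference from aHF-SC lay in Thy1 and Fbln2. Between aHF-SC and HF-TAC 3 of the 14 fell by limma (Fbln2, Thy1 and Cd248), beside 8.57% of all genes. The other 11 did not pass, with log2 differences from -1.02 to 0.20. Thy1, a surface protein of fibroblasts that other cells carry too, fell from 797 and 760 to 131 and 49.7 (limma adjusted p = 0.00203). Of 11 dermal papilla markers 8 were dim in HF-TAC, including Corin and Sox2, and the list summed to 311 and 369 there, against 248 to 326 on the stem cell arrays. Crabp1 of that list stood at 212 and 142 in HF-TAC, 146 and 49.2 in aHF-SC and 78.4 and 135 in qHF-SC, a difference from aHF-SC that did not pass (limma adjusted p = 0.237). Melanocyte markers summed to 512 and 695 in HF-TAC, 435 and 514 in aHF-SC and 1783 and 1956 in qHF-SC. The qHF-SC sums were mostly Mitf, at 1581 and 1801 there against 93.6 and 78.3 in HF-TAC. Of the 6, 3 rose in HF-TAC against qHF-SC, the pigment genes Dct, Tyr and Mlana (limma adjusted p = 0.00171, 0.0190 and 0.0174), and Mitf fell. Over all genes 13.4% rose and 12.9% fell in that comparison. Dct stood at 316 and 373 in HF-TAC, 179 and 217 in aHF-SC and 120 and 72.3 in qHF-SC, and Tyr was dim in all 3 populations. The part of fibroblasts, papilla cells and melanocytes in the Dcn signal was not tested.

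**Figure D2:**
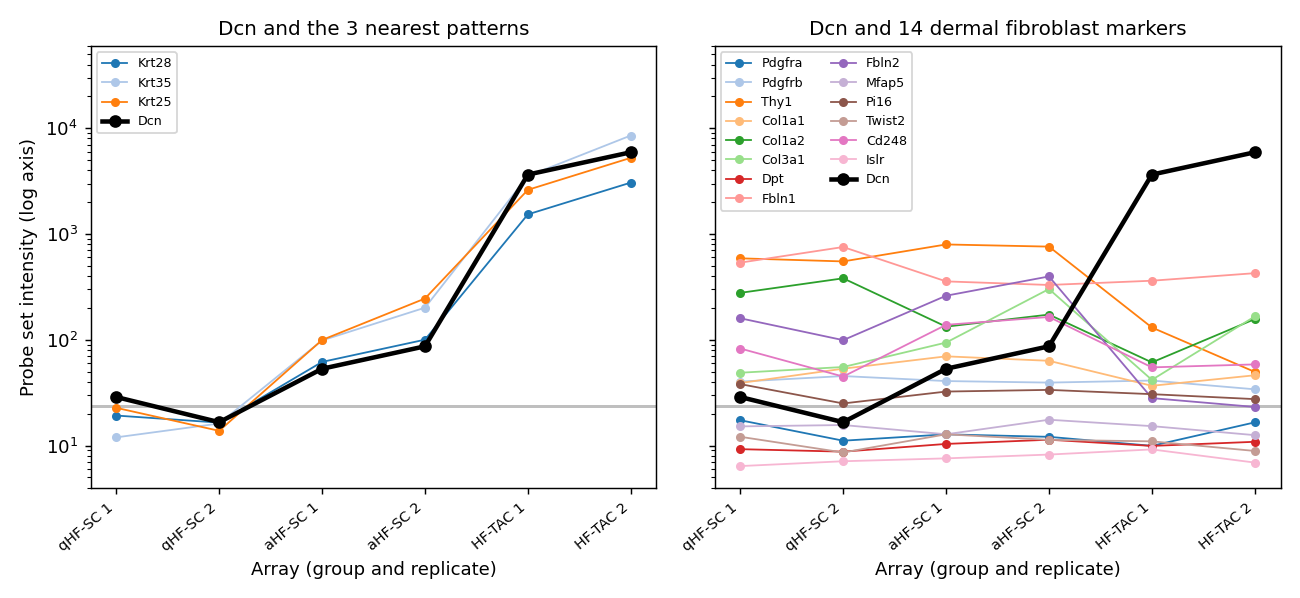
Intensity (log axis) on each of the 6 arrays for Dcn (black) beside the 3 genes of most similar pattern (left) and beside 14 dermal fibroblast markers (right); lines only join the points of a gene, and the grey band is the range of array medians. Krt25, Krt28 and Krt35 were picked for likeness to Dcn over these same arrays, so their shared rise in HF-TAC adds nothing. The fibroblast markers were not picked in this way, so the panels cannot be set against each other. Differences of these markers between HF-TAC and aHF-SC run from -3.66 to 0.20 on the log2 scale.

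Lumican, the class II keratan sulfate proteoglycan that lies next to Dcn in the genome, showed no such level. Lum stood at 9.88 and 11.3 in qHF-SC, 8.62 and 9.01 in aHF-SC and 8.03 and 11.5 in HF-TAC, all below the array medians. In the GRCm38.p6 gene order, Lum, Kera (keratocan) and Epyc (epiphycan) follow Dcn on chromosome 10. Kera lay between 6.32 and 8.77 and Epyc between 5.10 and 6.45 over the 6 arrays. Of these 4 neighbours, Dcn alone was above the array median in any population.

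Biglycan, a class I proteoglycan that can also act as a signal through Toll-like receptors when released from the matrix, was brightest in aHF-SC. Bgn stood at 881 and 252 in qHF-SC, 4565 and 4029 in aHF-SC and 347 and 461 in HF-TAC. The aHF-SC arrays lay above the other 4, and the HF-TAC arrays fell between the 2 qHF-SC arrays. The log2 difference was 3.19 ± 0.50 SE (9.10-fold) between aHF-SC and qHF-SC and -3.42 ± 0.50 SE between HF-TAC and aHF-SC. Bgn ranked 28 from the top and 62 from the bottom of 18193 genes in these comparisons. HF-TAC and qHF-SC differed by -0.24 ± 0.50 SE.

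All 3 Bgn probe sets gave the same picture. The other 2 gave log2 differences of 3.45 ± 0.55 SE and 3.30 ± 0.41 SE for aHF-SC minus qHF-SC, and -3.74 ± 0.55 SE and -3.58 ± 0.41 SE for HF-TAC minus aHF-SC. The replicates of qHF-SC differed for all of them, replicate 1 being 2.74-fold to 4.08-fold above replicate 2. Without qHF-SC replicate 1 the difference between aHF-SC and qHF-SC was 4.09, and without replicate 2 it was 2.28. That between HF-TAC and qHF-SC changed sign with the array left out, at 0.66 without replicate 1 and -1.14 without replicate 2.

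The genes most like Bgn were picked for likeness over these same arrays, so their shared split of the quiescent arrays adds nothing. Plagl1, a zinc finger transcription factor, was closest (0.22), with 784 and 183 in qHF-SC, 2375 and 2632 in aHF-SC and 267 and 266 in HF-TAC. Medag (0.24) and Rspo1 (0.28), which encodes an agonist of Wnt signalling, were next. Of 6 smooth muscle and pericyte markers, 2 rose in aHF-SC against qHF-SC and fell in HF-TAC against aHF-SC, the contractile genes Acta2 and Tagln. Des and Cnn1 did not pass. Over all genes 3.07% rose and 3.21% fell in the first comparison, and 8.57% fell in the second. Acta2 stood at 59.0 and 29.4 in qHF-SC, 2892 and 1428 in aHF-SC and 149 and 252 in HF-TAC. The list summed to between 2303 and 4553 in aHF-SC, 189 to 217 in qHF-SC and 378 to 521 in HF-TAC. Myh11 and Rgs5 of that list were dim in all 3 populations. Of 14 dermal fibroblast markers, 2 also rose in aHF-SC against qHF-SC, Fbln2 and Cd248 (limma adjusted p = 0.0401 and 0.0406). Fbln1 fell (limma adjusted p = 0.0480) and 11 did not pass. Both Fbln2 and Cd248 fell in HF-TAC against aHF-SC. Fbln2 stood at 160 and 99.2 in qHF-SC, 261 and 397 in aHF-SC and 28.1 and 23.2 in HF-TAC. The part of such cells in the Bgn signal was not tested.

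Prelp, a class II protein known to link basement membranes to the collagen beneath, was also highest in aHF-SC. It stood at 41.0 and 41.2 in qHF-SC, 70.4 and 70.5 in aHF-SC and 48.2 and 48.7 in HF-TAC, with no overlap between populations. The log2 difference was 0.78 ± 0.14 SE between aHF-SC and qHF-SC and -0.54 ± 0.14 SE between HF-TAC and aHF-SC. Its other probe set, of a kind that can cross-hybridise, gave 96.7 and 181 in aHF-SC against 32.7 and 28.03 in qHF-SC and 26.9 and 26.5 in HF-TAC. There the differences were 2.12 ± 0.27 SE and -2.31 ± 0.27 SE, so both probe sets peaked in aHF-SC but by unequal amounts.

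Asporin, a class I protein that binds TGF-beta and, unlike decorin and biglycan, carries no glycosaminoglycan chain, was bright in qHF-SC. Aspn stood at 287 and 317 in qHF-SC, 56.8 and 10.3 in aHF-SC and 9.27 and 7.74 in HF-TAC. The qHF-SC arrays lay above the other 4, and 1 aHF-SC array was above the array median while the other was near the HF-TAC level. The log2 difference was -3.64 ± 0.65 SE between aHF-SC and qHF-SC, a 12.4-fold lower intensity in aHF-SC and rank 16 from the bottom of 18193 genes. Between HF-TAC and qHF-SC it was -5.15 ± 0.65 SE, at least 13.0-fold.

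The second Aspn probe set gave -4.25 ± 0.52 SE and -5.29 ± 0.52 SE for these comparisons. It showed the same gap between the aHF-SC replicates, 33.8 against 8.72. Without aHF-SC replicate 1 the Aspn difference from qHF-SC was -4.87 and without replicate 2 it was -2.41. The difference between HF-TAC and aHF-SC moved more, from -1.52 ± 0.65 SE to -0.29 without aHF-SC replicate 1 and -2.74 without replicate 2.

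Zbtb16, which encodes the transcription factor PLZF, was closest to Aspn in pattern (0.55), at 596 and 1027 in qHF-SC, 75.9 and 49.9 in aHF-SC and 40.1 and 26.7 in HF-TAC. Sphkap (0.57) and A530047J11Rik (0.60) followed. Among fibroblast markers Fbln1 and Col1a2 were also brightest in qHF-SC, with Col1a2 at 278 and 381 there against 133 and 173 in aHF-SC. Others of the list went the opposite way, with log2 differences between aHF-SC and qHF-SC of 1.35 for Fbln2 and 1.31 for Cd248. The part of fibroblasts in the Aspn signal was not tested.

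Aspn lies in a run of 4 family genes on chromosome 13, in the order Ecm2, Aspn, Omd and Ogn, and was the only gene of the run above the array median in any population. Omd, a keratan sulfate proteoglycan best known from bone, stood at 6.70 and 7.86 in qHF-SC, 8.64 and 7.87 in aHF-SC and 7.05 and 8.48 in HF-TAC. Ogn, of class III, stood at 11.6 and 9.17, 12.7 and 11.4, and 11.7 and 10.5 in the same order. Ecm2 lay between 4.85 and 6.81. For Omd and Ogn log2 differences between populations lay between -0.37 and 0.22 over their 3 probe sets.

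Fibromodulin is a class II proteoglycan that binds type I collagen. On the probe set used for the gene, Fmod was above the array median in the stem cell populations and dim in HF-TAC. It stood at 77.7 and 389 in qHF-SC, 198 and 47.1 in aHF-SC and 13.4 and 11.97 in HF-TAC. The stem cell populations overlapped, and the HF-TAC arrays lay below all 4 of their arrays. HF-TAC differed from qHF-SC by -3.78 ± 0.81 SE on the log2 scale, at least 7.50-fold, and from aHF-SC by -2.93 ± 0.81 SE, at least 4.16-fold. The stem cell populations differed by -0.85 ± 0.81 SE, a value that turned to 0.31 when qHF-SC replicate 2 was left out, to 0.19 when aHF-SC replicate 2 was, and that was -2.01 and -1.89 without replicate 1 of each. Between HF-TAC and qHF-SC the difference was -4.94 and -2.62 without qHF-SC replicate 1 and 2, and between HF-TAC and aHF-SC -1.89 and -3.97 without aHF-SC replicate 1 and 2.

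Fmod had 6 probe sets, 5 of them of the type that can cross-hybridise. All 6 were lower in HF-TAC than in either stem cell population, without overlap of arrays, but the other 5 by less, at -1.17 to -1.55 against qHF-SC and -0.70 to -1.08 against aHF-SC. The probe set without that risk gave -1.25 ± 0.64 SE and -0.78 ± 0.64 SE. Its arrays were separated only narrowly, with aHF-SC replicate 2 at 19.88 and HF-TAC replicate 1 at 19.73, both below the array medians. Another of the 6 stood at 27.6 and 26.8 in HF-TAC and was not dim there. All 6 were also higher in replicate 2 than in replicate 1 of qHF-SC, by 2.00-fold to 5.001-fold, and lower in replicate 2 than in replicate 1 of aHF-SC, by 1.35-fold to 4.21-fold. Sema3e, a guidance ligand, was the gene of closest pattern (0.55), at 1367 on both qHF-SC arrays, 663 and 288 in aHF-SC and 79.0 and 76.3 in HF-TAC. Galnt15 (0.58) and Minar2 (0.62) followed. Fmod and Prelp are neighbours on chromosome 1, beside Optc (opticin), which lay between 14.1 and 18.5 on the arrays and was dim in all populations.

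**Figure D3:**
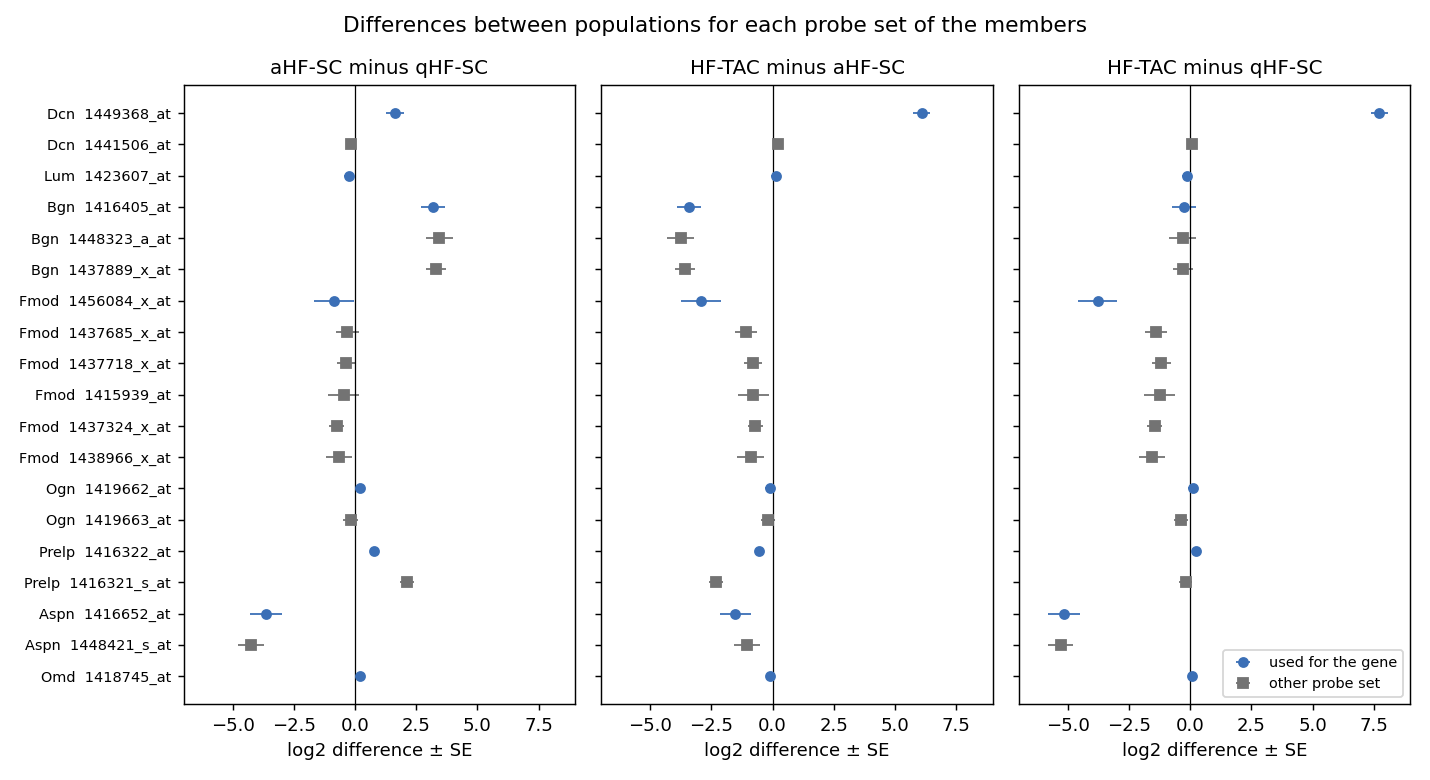
Log2 difference between populations with its SE for each of the 19 probe sets of the 8 genes, in the 3 comparisons; circles are the probe sets used for a gene and squares the others. The 3 Bgn and the 2 Aspn probe sets lie close together, the 6 Fmod probe sets share a sign, and the 2 Dcn probe sets part, at 6.10 and 0.23 between HF-TAC and aHF-SC.

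Across all genes, 3.07% were called higher and 3.21% lower when aHF-SC was set against qHF-SC (limma, Benjamini-Hochberg adjusted p under 0.05). Of the 8 genes, 3 were among those higher (Dcn, Bgn and Prelp) and 1 among those lower (Aspn). Between aHF-SC and HF-TAC 8.97% of all genes were called higher and 8.57% lower in HF-TAC, with 1 of the 8 higher (Dcn) and 2 lower (Bgn and Prelp). Between qHF-SC and HF-TAC 13.4% were called higher and 12.9% lower in HF-TAC, with 1 higher (Dcn) and 2 lower (Fmod and Aspn). Calls kept or lost under other settings are description too, since the genes were picked with these differences in view. The counts describe the genes and support nothing. They also moved with single arrays. In aHF-SC against qHF-SC, Dcn and Prelp were lost when any stem cell array was left out. Bgn was lost there without either aHF-SC array, and Aspn without either qHF-SC array. With an array left out, the Dcn difference of HF-TAC lay between 5.74 and 6.45 from aHF-SC and between 7.34 and 8.13 from qHF-SC. In HF-TAC against aHF-SC Prelp was lost when any of the 6 arrays was left out, and in HF-TAC against qHF-SC Fmod was lost without qHF-SC replicate 2 or HF-TAC replicate 2. Without qHF-SC replicate 2 Bgn was called there too, at -1.14. With 16 added to the intensities, Prelp alone was called between the stem cell populations and Fmod was lost against qHF-SC. Averaging probe sets lost Dcn between the stem cell populations and Fmod in HF-TAC against qHF-SC, and Fmod was also lost without probe sets that can cross-hybridise. The block for the replicate number lost Dcn between the stem cell populations and Prelp in HF-TAC against aHF-SC. Scaling to the 75th percentile and a variance trend each lost Prelp in HF-TAC against aHF-SC too. In that last comparison Fmod, not called as reported, was called with the filter on dim genes, a variance trend, scaling to the 75th percentile, or without either qHF-SC array or aHF-SC replicate 2, and Aspn without aHF-SC replicate 2. The comparisons share arrays. The median log2 difference over the 8 was 0.20, -0.33 and -0.025 in the order of the comparisons, against 0.0048, -0.012 and -0.0089 over all genes.

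Other genes of the pathway were listed by their known roles and tested. Of 74 genes in 6 lists 70 were measured: relatives of the family, enzymes that build the sugar chains, fibrillar collagens with their assembly enzymes, bound ligands and receptors, and cleaving proteases. In aHF-SC against qHF-SC 3 rose, 1 fell and 66 did not pass. In HF-TAC 1 rose and 19 fell against aHF-SC, and 3 rose and 17 fell against qHF-SC. These counts, and those of single lists below, stand beside the shares over all genes. Between the stem cell populations 3.07% were called higher and 3.21% lower. In HF-TAC the shares were 8.97% and 8.57% against aHF-SC, and 13.4% and 12.9% against qHF-SC. The 4 calls between the stem cell populations came down to 1 without qHF-SC replicate 2 or either aHF-SC array. The 20 against aHF-SC came down to 13 without either aHF-SC array, and the 20 against qHF-SC to 12 without either qHF-SC array. After 16 was added to all intensities, 8 of the calls named here also ended (limma adjusted p 0.0591 to 0.0961): Chadl in both comparisons, Csgalnact1, B4galt4, Mmp2, and Chsy1, Bmp1 and Col5a1 between the stem cell populations.

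**Figure D4:**
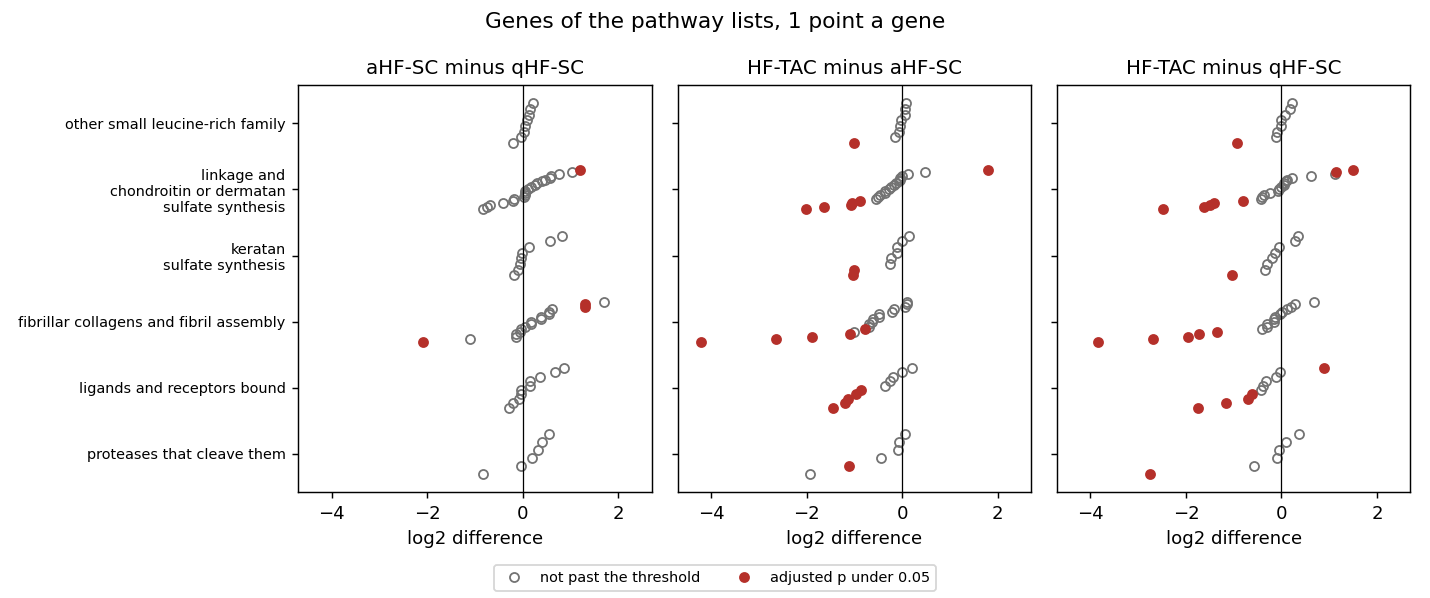
Log2 difference of each measured gene of the 6 pathway lists in the 3 comparisons; filled points passed the threshold (limma adjusted p under 0.05) and open points did not. Most filled points lie left of 0 in both comparisons of HF-TAC, where 19 and 17 genes fell.

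Of 8 measured relatives, Kera, Epyc, Optc, Nyx, Chad and Ecm2 were dim in all 3 populations. Podn lay between 61.0 and 68.3 on all arrays. Chadl, a chondroadherin-like protein, fell in HF-TAC, 2.02-fold below aHF-SC (adjusted p = 0.0424) and 1.89-fold below qHF-SC (0.0432). The first call ended without any of the aHF-SC and HF-TAC arrays (adjusted p 0.0688 to 0.192) and with a block for the replicate number (0.0549). The second ended without qHF-SC replicate 2 or any aHF-SC or HF-TAC array (0.0623 to 0.201) and with the block (0.0537).

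The enzymes that build chondroitin and dermatan sulfate, the chains of decorin and biglycan, moved in both directions. Of 21 measured, 1 rose and 5 fell in HF-TAC against aHF-SC, and against qHF-SC 2 rose and 5 fell. The chondroitin sulfotransferase genes Chst12 and Chst13 fell against aHF-SC by 2.02 ± 0.29 SE and 1.64 ± 0.21 SE on the log2 scale (adjusted p = 0.00391 and 0.00244). Chst13 stood at 270 and 315 in qHF-SC, 140 and 191 in aHF-SC and 58.7 and 47.1 in HF-TAC. Csgalnact2, whose enzyme starts the chondroitin chain, fell 3.08-fold against qHF-SC (adjusted p = 0.000824). Its relative Csgalnact1 rose 3.49-fold against aHF-SC (adjusted p = 0.0206), a call that ended without aHF-SC replicate 1 (0.0978) or HF-TAC replicate 2 (0.0799). Chst15, another sulfotransferase, rose 2.83-fold against qHF-SC (adjusted p = 0.0104; 0.0666 without qHF-SC replicate 2). In aHF-SC against qHF-SC, where Bgn was higher, 1 of the 21 rose, the chondroitin synthase gene Chsy1 (2.30-fold, adjusted p = 0.0361). That call ended without any of the qHF-SC and aHF-SC arrays (0.0552 to 0.216) and with the block (0.0665).

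Of 8 keratan sulfate enzymes, 2 fell in HF-TAC against aHF-SC and 6 did not pass. Those that fell were the galactosyltransferase genes B4galt1 (2.02-fold, adjusted p = 0.00479) and B4galt4 (2.05-fold, adjusted p = 0.037). The B4galt4 call ended without either qHF-SC array (0.0644 each), aHF-SC replicate 2 (0.176) or HF-TAC replicate 1 (0.146). Against qHF-SC, B4galt1 fell 2.04-fold (adjusted p = 0.00275) and was the only call. In aHF-SC against qHF-SC the 8 differences ran from -0.18 to 0.83 on the log2 scale.

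Several collagen genes were low in HF-TAC, where Dcn was brightest. Of 17 genes of fibrillar collagens and fibril assembly, 5 fell in HF-TAC against aHF-SC and 5 against qHF-SC, and the other 12 of each comparison did not pass. Col12a1, a collagen of fibril surfaces, was at 1155 and 648 in qHF-SC, 1090 and 1161 in aHF-SC and 53.3 and 68.7 in HF-TAC (18.6-fold lower than in aHF-SC, adjusted p = 0.000263). Averaged over its 4 probe sets the log2 difference was -1.57 in place of -4.22. Against qHF-SC it fell 14.3-fold (adjusted p = 0.000138), a log2 difference of -3.84, or -1.36 on that average. The type V collagen genes Col5a1 and Col5a2 fell 6.24-fold and 3.71-fold against aHF-SC (adjusted p = 0.0010 and 0.00378). Averaged over its probe sets, the Col5a1 log2 difference was -1.45 in place of -2.64.

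Tll1, a tolloid protease of procollagen processing, fell from 64.1 and 39.8 in qHF-SC to 10.3 and 13.8 in aHF-SC and 8.29 and 7.43 in HF-TAC, both of which are dim. Its difference between aHF-SC and qHF-SC was -2.08 ± 0.26 SE (adjusted p = 0.00813), and -1.26 after 16 was added to the intensities. Bmp1, of the same family and known to mature biglycan, rose 2.47-fold (adjusted p = 0.0369), as did Col5a1 (2.46-fold, adjusted p = 0.0328). Both calls ended without qHF-SC replicate 2 (0.157 and 0.173), aHF-SC replicate 1 (0.0969 and 0.149) or aHF-SC replicate 2 (0.163 and 0.0937) and with the block (0.0596 and 0.0556), and that of Bmp1 for the mean of its probe sets (0.0731).

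Of 10 ligands and receptors, 5 fell in HF-TAC against aHF-SC, and 1 rose and 4 fell against qHF-SC. Met, the receptor of hepatocyte growth factor that decorin binds, fell 2.74-fold against aHF-SC (adjusted p = 0.00123) and 3.35-fold against qHF-SC (0.000302). When its probe sets were averaged, the log2 differences were -0.95 in place of -1.46 and -1.07 in place of -1.74. Egfr, another receptor bound by decorin, fell 2.18-fold and 2.25-fold (adjusted p = 0.0152 and 0.00851). Averaged over its 7 probe sets these differences were -0.42 and -0.27 and did not pass (0.0533 and 0.147). The first Egfr call also ended without either aHF-SC array (0.0772 and 0.0578) or HF-TAC replicate 1 (0.0579), and the second without qHF-SC replicate 1 (0.0586). Tgfb3 fell 2.30-fold against aHF-SC (adjusted p = 0.0135), which was lost without aHF-SC replicate 1 (0.0674) or HF-TAC replicate 2 (0.0599).

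Tgfb1, a growth factor bound by decorin and asporin, rose 1.86-fold in HF-TAC against qHF-SC (adjusted p = 0.0209). This did not hold without qHF-SC replicate 1 (0.0658) or 2 (0.119), without HF-TAC replicate 2 (0.103) or when its probe sets were averaged (0.080). Of the Toll-like receptors known to sense free biglycan, Tlr4 was dim in all populations, and Tlr2 stood at 42.7 and 38.3 in qHF-SC, 46.0 and 58.0 in aHF-SC and 24.8 and 28.2 in HF-TAC.

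Of 6 proteases known to cleave the family, 1 fell in HF-TAC in each comparison, beside 8.57% and 12.9% of all genes. Mmp14, a membrane-bound metalloproteinase, fell 2.16-fold against aHF-SC (adjusted p = 0.0116), a call that ended without aHF-SC replicate 1 (0.060) or 2 (0.0529). Mmp2, a gelatinase, fell by 2.75 ± 0.65 SE on the log2 scale against qHF-SC (adjusted p = 0.0189). It was lost without qHF-SC replicate 1 (0.0953) or 2 (0.0748) and without HF-TAC replicate 2 (0.0731), where the difference was -1.85, against -3.66 without HF-TAC replicate 1.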

How the data were processed

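RNA of 3 sorted mouse populations was measured on 6 Affymetrix arrays (2 µg of RNA each, per the labels). The authors deposited linear, not log-transformed, probe set intensities between 3.83 and 31188.2. RMA is named in the submitters' processing notes without a version; it compresses large folds and dim signals, and its software and chip definition were not stated. No detection calls were used. Precision is limited by having 2 arrays a group.

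Intensities were put on the log2 scale. Of 45101 probe sets, 64 controls were left out, 34945 carried 1 gene symbol, 932 several and 9160 none in the platform annotation; 34741 matched a RefSeq gene identifier and 0 symbols were updated. Genes were tested across the whole table through the probe set with the highest mean (18193 genes) in 1 limma 3.58.1 fit of 3 group means (R 4.3.3), with 3 residual and 4.25 prior degrees of freedom, two-sided, with a Benjamini-Hochberg threshold of 0.05. The fit was tested on simulated data. Probe sets of the 8 genes were fitted over all probe sets.

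Named were the 8 genes, up to 3 genes past the threshold with the largest difference per pathway list and comparison, and the 3 nearest patterns of each member whose group means spanned at least 1 on the log2 scale. Podn, Tlr2, Tlr4 and the single marker genes were named after their values were seen. Genes and lists were chosen with earlier results of these data known. Tsku, Podnl1, Xylt1, Loxl2 and the marker Fbn1 were not analysed here. Alternatives were other probe set choices, scalings, an offset of 16, a filter, a variance trend, a replicate block and each array left out.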

Additional observations from a re-analysis of the deposited data

How the results depend on the processing

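Under the alternatives, 285 values of the log2 differences of the 8 genes moved by less than the spread between replicates and 42 by more. Many of the 285 could not move. The variance trend, the replicate block, the filter and leaving out an array of the third group do not alter a difference. The same settings cannot move the median given next. No called difference changed sign, while uncalled differences of Bgn, Fmod, Lum, Ogn and Omd did under single alternatives. The median difference over the 8 genes moved by less than the replicate spread in every setting, and was not computed with the filter on dim genes, which left 5 of the 8. Counts of all genes called in aHF-SC against qHF-SC were 1142 as reported, 548 with an offset of 16 and 124 to 1354 with an array left out, the lowest without qHF-SC replicate 2. For HF-TAC they were 3191 against aHF-SC (1643 to 2786 with an array left out, the lowest without aHF-SC replicate 2) and 4790 against qHF-SC (2893 to 4588, the lowest without qHF-SC replicate 2). Pathway genes called in aHF-SC against qHF-SC were 4 as reported, 1 with the offset, 2 with the replicate block and 1 to 5 with an array left out. In HF-TAC they were 20 in each comparison, and with an array left out 13 to 18 against aHF-SC and 12 to 19 against qHF-SC. Deviations of same-numbered replicates correlated at 0.061, -0.13 and 0.084 between groups, which gives no sign of pairing by number. With 2 arrays a group this cannot tell whether same-numbered arrays share mice. With the replicate number as a block (paired) 889, 2836 and 4530 genes were called. Folds against dim groups are uncertain in size, since the arrays give no level there.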
